A study of Saccharomyces cerevisiae with 4 samples.

Results

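The cyclins of the cyclin-dependent kinase Cdc28 and its inhibitor SIC1 were examined in budding yeast as 10 named genes (CLN1, CLN2, CLN3, CLB1, CLB2, CLB3, CLB4, CLB5, CLB6 and SIC1), all of which were found among the 6782 genes of the deposited table. The induced cultures received 100 nM estradiol for 6 h and the uninduced cultures received the solvent DMSO for 6 h, with 2 libraries in each group, from cultures that the design text calls biological replicates. Both groups were of the W303 background and carried 6xIAPP, integrated as a single copy in the LEU2 locus with an estradiol-inducible promoter, so the controls carry the construct too. IAPP (islet amyloid polypeptide) is an amyloid-forming hormone made by pancreatic beta cells, and the study's title names the toxicity of 6xIAPP. The level of 6xIAPP itself was not analysed here. The cultures grew in log phase and were not described as synchronized. No library with estradiol and without the construct was analysed here, so the inducer and the construct cannot be told apart.

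In budding yeast Cdc28 drives the cell cycle by binding a succession of cyclins. The G1 cyclins Cln1, Cln2 and Cln3 bring the cell through Start, the S-phase cyclins Clb5 and Clb6 fire DNA replication, and the mitotic cyclins Clb1 to Clb4 build the spindle and bring about mitosis. Sic1 holds Clb-bound Cdc28 inactive in G1 until it is phosphorylated and destroyed. Transcription of these genes is itself periodic: SBF and MBF switch on the CLN1/CLN2 and CLB5/CLB6 genes at the G1/S boundary, Mcm1 with a forkhead protein and Ndd1 switches on CLB1 and CLB2 in G2 and M, and Swi5 switches on SIC1 at the exit from mitosis.

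Recovered reads per library came to 11694161 and 14724917 in the induced libraries and to 15582338 and 10397606 in the uninduced libraries. Levels are the authors' CPM, in which each library's counts were divided by a library size of the authors' choice. Changes are given as induced minus uninduced in log2(CPM + 1), a scale that shrinks the changes of low genes. A call is an adjusted p under 0.05 in limma over the 6037 genes with a mean of at least 1 CPM, and 72.7% of these were called, 35.6% higher and 37.0% lower. Against that background 8 of the 10 genes were called, 7 lower and 1 higher, so the share called was near that of all genes. The median log2 fold change of the 10 was -0.26 and that of all genes tested was -0.00042. The 7 called lower were also those in which both induced libraries lay below both uninduced ones, a pattern found in 43.1% of all genes tested. With libraries scaled to their total reads, where the median of all genes moved to 0.12, 3 of the 10 were called lower (29.4% of all genes), and tested against a 1.2-fold change 3 were called lower (23.2% of all genes). In both settings those 3 were CLB1, CLB2 and CLB6. Of these CLB6 passed the filter of 1 CPM through the uninduced libraries, so its place in these counts rests on that group. The library totals are of bulk cultures, in which fewer cells in a phase and less RNA per cell cannot be told apart.

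**Figure D1:**
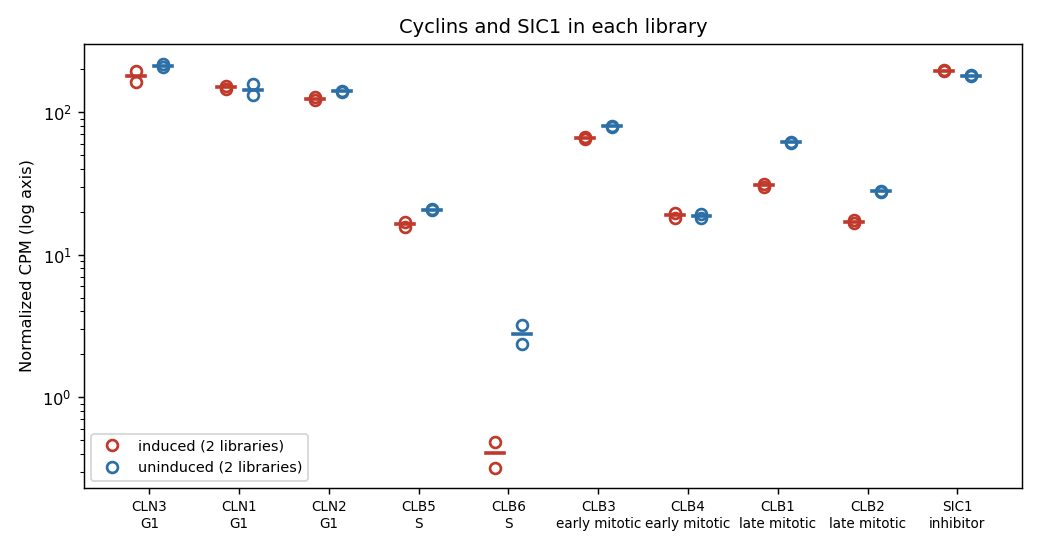
Normalized CPM (vertical log axis) of the 10 genes in each library, with induced libraries left (red) and uninduced libraries right (blue) for each gene, open circles for libraries and bars for the mean of 2. CLB6 lies lowest in both groups, and the induced points of CLB1, CLB2 and CLB6 lie well below the uninduced ones.

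The G1 cyclin genes moved little. CLN3, the most upstream G1 cyclin and a sensor of growth, had 195 and 161 CPM in induced libraries, against 216 and 206 CPM in uninduced libraries. Both induced values were the lower ones, but the induced pair lay 34.0 CPM apart, farther than the 10.6 CPM that separated its nearest value from the uninduced pair. CLN3 fell by 0.25 ± 0.08 (SE) on the log2 scale (adjusted p = 0.00981). That call was lost in 6 of 15 other settings, among them the omission of induced library 2 (-0.11, adjusted p = 0.163) and total-read scaling (-0.12, adjusted p = 0.16). CLN2, which with CLN1 triggers budding and the destruction of Sic1, had 127 and 121 CPM in induced libraries, against 141 and 138 CPM in uninduced libraries. The groups of CLN2 did not overlap, and it fell by 0.17 ± 0.05 (adjusted p = 0.0122). It lost its call in 4 of 15 settings, among them without induced library 2 (-0.14, adjusted p = 0.106) and with total-read scaling (-0.047, adjusted p = 0.454).

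CLN1, the close relative of CLN2, had 152 and 145 CPM in induced libraries and 156 and 131 CPM in uninduced libraries. Its induced values lay inside the uninduced range, and the difference of 0.05 ± 0.07 did not pass (adjusted p = 0.544). Without uninduced library 1 it passed as higher (0.18, adjusted p = 0.0217), and without uninduced library 2 it stood at -0.074 (adjusted p = 0.336), so the uninduced pair decides its sign. Summed over the 3 G1 cyclins, the level was 450.2 ± 33.1 CPM in induced libraries and 494 ± 27.3 CPM in uninduced libraries (SD, n = 2 each).

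The S-phase cyclin genes CLB6 and CLB5 both fell, by unequal amounts, and CLB6 had the lowest level of the 10 genes in both groups. CLB6 (chromosome VII, 705359 to 706501, minus strand, R64 build, no intron), whose product acts on early replication origins, had 0.487 and 0.321 CPM in induced libraries, against 2.37 and 3.21 CPM in uninduced libraries. These values stand for 6 and 5 reads in induced libraries and 36 and 32 reads in uninduced libraries. The exact 95% Poisson intervals of those reads, which cover counting error only, were 2.20 to 13.1 and 1.62 to 11.7 in induced libraries and 25.2 to 49.8 and 21.9 to 45.2 in uninduced libraries. The intervals of the groups, which are of reads not scaled for library depth, did not overlap. The ratio of mean CPM was 0.145. CLB6 fell by 1.43 ± 0.23 on the log2(CPM + 1) scale (adjusted p = 0.000109), a value that depends on the pseudocount at this level: edgeR on the reads gave -2.75 and the authors' deposited table -2.77. Its mean passed the filter of 1 CPM through the uninduced libraries, since both induced values lay under it.

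CLB5 (chromosome XVI, 773875 to 775182, minus strand), the main S-phase cyclin, had 17.1 and 15.7 CPM in induced libraries, against 20.4 and 20.8 CPM in uninduced libraries. The groups of CLB5 did not overlap, and it fell by 0.32 ± 0.10 (adjusted p = 0.0137). Its call was lost without induced library 2 (-0.26, adjusted p = 0.102), with total-read scaling (-0.20, adjusted p = 0.0964), in DESeq2 (adjusted p = 0.0935) and against a 1.2-fold change (adjusted p = 0.515). The ratio of CLB5 to CLB6 within a library, which no library scaling can change, was 35.0 and 48.8 in induced libraries and 8.61 and 6.50 in uninduced libraries.

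The CLB6 promoter is shown because CLB6 fell the most and because it was the member whose 600 bases before the start held the MCB, the element of MBF (ACGCGT, its own reverse complement). Of 5999 promoters of that length, 6.33% held an MCB, and CLB6 had 2, at -403 and -377 from the start. It also had the forkhead letters GTAAACAA (either strand, in 5.30% of promoters) at -345. The stretch runs from -440 to -141 in the direction of the gene, read from the RefSeq genome sequence (R64, chrVII:706642-706941, minus strand), with the MCBs and the forkhead letters in capitals and no overlap between them. A match is a description of the letters and not of binding.
CLB6: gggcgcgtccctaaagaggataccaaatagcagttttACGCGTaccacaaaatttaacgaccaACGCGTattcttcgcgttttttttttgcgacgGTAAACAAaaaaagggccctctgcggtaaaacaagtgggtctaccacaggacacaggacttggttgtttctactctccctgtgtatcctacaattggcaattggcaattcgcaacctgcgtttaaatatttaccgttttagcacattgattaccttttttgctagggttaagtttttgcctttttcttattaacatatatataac

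Early mitotic cyclin genes differed by a small step or did not pass. CLB3, which helps form the spindle, had 67.1 and 64.7 CPM in induced libraries, against 80.0 and 78.3 CPM in uninduced libraries. CLB3 groups did not overlap, and the gene fell by 0.26 ± 0.06 (adjusted p = 0.00234). The call was lost with total-read scaling (-0.14, adjusted p = 0.0729) and against a 1.2-fold change (adjusted p = 0.816). CLB4, its close relative, had 18.0 and 19.7 CPM in induced libraries and 18.2 and 19.3 CPM in uninduced libraries. The uninduced pair of CLB4 lay inside the induced one, with a difference of 0.0073 ± 0.10 (adjusted p = 0.954), and its sign turned in 3 of 15 other settings.

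The late mitotic cyclins CLB1 and CLB2 kept their calls in 15 of 15 other settings, as CLB6 did in the 14 that gave it a value. CLB1 (chromosome VII, 703636 to 705051, plus strand) had 31.5 and 29.7 CPM in induced libraries, against 61.0 and 62.0 CPM in uninduced libraries. Each pair lay within 1.83 CPM while the groups stood 29.5 CPM apart at their nearest, and the induced mean was 50.3% lower. CLB1 fell by 0.99 ± 0.08 (adjusted p = 1.02e-07), and over 15 other settings its adjusted p stayed between 5.47e-16 and 0.000262. CLB2 (chromosome XVI, 771653 to 773128, plus strand), the main mitotic cyclin, had 17.4 and 16.7 CPM in induced libraries, against 27.6 and 27.9 CPM in uninduced libraries. CLB2 pairs lay within 0.676 CPM, and the induced mean was 38.6% lower. CLB2 fell by 0.67 ± 0.09 (adjusted p = 3.14e-05, with 7.79e-06 to 0.00157 over the other settings). In the authors' deposited table CLB1, CLB2 and CLB6 were the members with an adjusted p under 0.05 (1.6e-07, 0.0119 and 1.22e-06), a table in which 21.6% of the genes tested here were lower at that threshold.

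Within a library CLB1 stood at 1.81 and 1.78 times CLB2 in induced libraries and at 2.21 and 2.23 times CLB2 in uninduced libraries. The log2 ratio differed by -0.31 between the groups, with SDs of 0.02 (induced) and 0.0076 (uninduced), so CLB1 was lower relative to CLB2 as well. An exact permutation test of 2 against 2 libraries cannot reach 0.05, so the ratios are given without a test. CLB1 and CLB6 lie tail to tail on chromosome VII with 307 bases between their coding ends, and CLB2 and CLB5 lie tail to tail on chromosome XVI with 746 bases between them. Whether the authors' counting used strand is not stated in the sources used here, so reads past the end of such a gene may have been counted for its neighbour. No member overlapped another gene of the RefSeq annotation. The coding sequences of CLB1 and CLB2 were identical at 60.6% of aligned bases with no shared run over 17 bases, and the longest run shared by any pair of the 10 genes was 23 bases (CLB5 and SIC1).

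The promoters of CLB1 and CLB2 are shown because these 2 genes fell together and share control by Mcm1. The core of an Mcm1 site (CC and GG with 6 bases of any kind between them, the same on both strands) was found at -424 and -29 in CLB1 and at -540 in CLB2, but 56.9% of all promoters of 600 bases held such a core. Those at -424 and -540 are in capitals, as are the Swi5 letters CCAGC (either strand, in 43.2% of promoters) at -179 in CLB1, and none of these overlap. The Mcm1 core was found in 7 of the 10 genes, so it does not set CLB1 and CLB2 apart. Neither gene had the forkhead letters GTAAACAA in its 600 bases. The next gene upstream lies 2587 bases from CLB1 and 2350 bases from CLB2, and the bases beyond 600 were not searched. The CLB1 stretch runs from -440 to -141 (chrVII:703196-703495, plus strand) and the CLB2 stretch from -600 to -301 (chrXVI:771053-771352, plus strand), both from the RefSeq R64 sequence.
CLB1: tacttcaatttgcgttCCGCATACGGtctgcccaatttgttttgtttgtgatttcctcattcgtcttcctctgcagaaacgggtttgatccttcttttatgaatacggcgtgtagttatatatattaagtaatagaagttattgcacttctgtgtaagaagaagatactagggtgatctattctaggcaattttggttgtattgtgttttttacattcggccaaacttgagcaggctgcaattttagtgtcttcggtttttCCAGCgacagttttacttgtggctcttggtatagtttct
CLB2: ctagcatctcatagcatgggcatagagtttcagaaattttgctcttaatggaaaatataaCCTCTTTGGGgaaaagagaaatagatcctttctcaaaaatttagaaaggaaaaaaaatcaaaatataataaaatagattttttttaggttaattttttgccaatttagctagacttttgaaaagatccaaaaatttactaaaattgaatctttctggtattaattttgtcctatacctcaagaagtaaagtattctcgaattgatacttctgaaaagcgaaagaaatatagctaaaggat

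**Figure D2:**
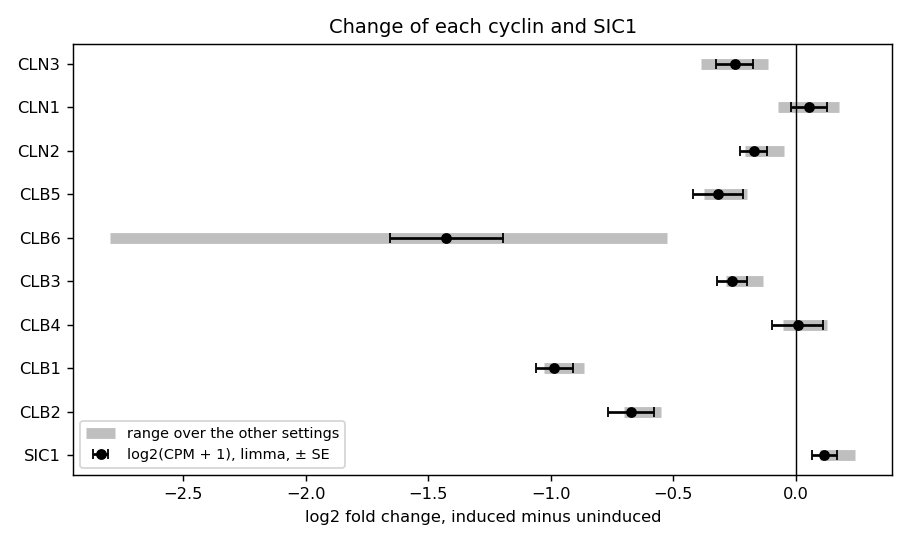
Log2 fold change of each gene, induced minus uninduced (horizontal axis), as the limma value on log2(CPM + 1) with its SE (black) and the range over the other settings (grey, 14 for CLB6 and 15 for the rest). CLB1 and CLB2 have narrow ranges far from 0, CLB6 a wide one from -2.80 to -0.53, and the ranges of CLN1 and CLB4 include 0.

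SIC1, the inhibitor of Clb-bound Cdc28, was slightly higher. It had 196 and 194 CPM in induced libraries, against 178 and 182 CPM in uninduced libraries. Both induced values were higher, by a ratio of means of 1.08. The difference of 0.12 ± 0.05 passed by a narrow margin (adjusted p = 0.0497) and lost its call in 8 of 15 other settings, among them the omission of any library. Those values were 0.11 (adjusted p = 0.165) without induced library 1, 0.12 (adjusted p = 0.123) without induced library 2, 0.099 (adjusted p = 0.178) without uninduced library 1 and 0.13 (adjusted p = 0.0675) without uninduced library 2. With total-read scaling it was 0.24 (adjusted p = 0.000774).

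Set against its targets, SIC1 stood higher. The ratio of SIC1 to the sum of the 6 CLB genes within a library was 1.29 and 1.32 in induced libraries and 0.847 and 0.860 in uninduced libraries. The groups lay far apart compared with their pairs, with a log2 difference of 0.61 and SDs of 0.02 in each group. The CLB sum was 149 ± 3.31 CPM in induced libraries and 211 ± 1.35 CPM in uninduced libraries. Within that sum the late mitotic pair came to 47.6 ± 1.77 CPM in induced libraries and 89.3 ± 0.885 CPM in uninduced libraries, and the early mitotic pair to 84.8 ± 0.444 CPM in induced libraries and 97.9 ± 0.416 CPM in uninduced libraries. The S-phase pair added 16.8 ± 1.09 CPM in induced libraries and 23.4 ± 0.883 CPM in uninduced libraries (SD, n = 2 for each sum).

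**Figure D3:**
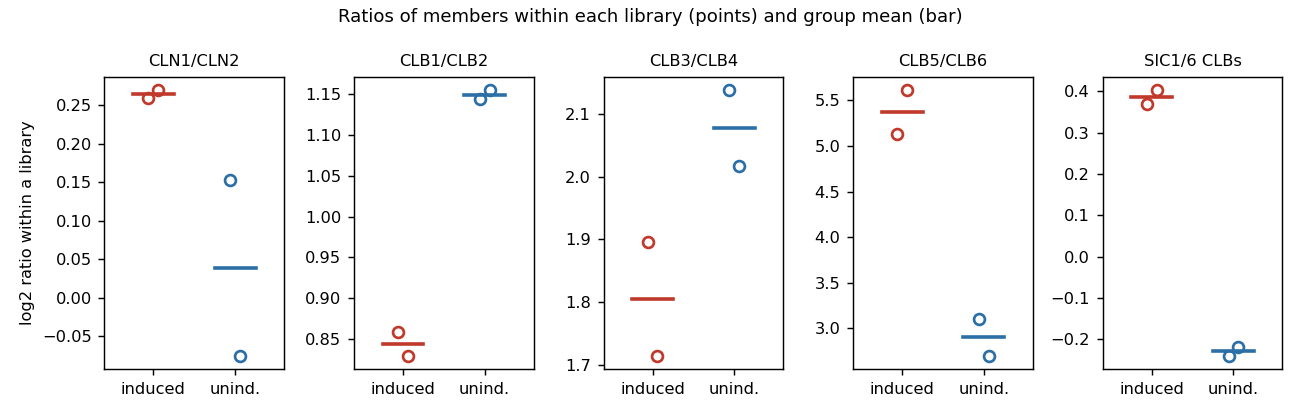
Log2 ratio of 2 genes within each library (vertical axis, with its own scale in each panel), induced left and uninduced right, with circles for libraries and bars for the mean of 2. The groups do not overlap in any of the 5 ratios, but such separation was common among single genes. Of 6037 genes tested, 2587 had both induced libraries above both uninduced ones and 2603 had both below. The share for ratios of 2 genes was not computed. For CLN1 to CLN2 the log2 difference was 0.23, with an uninduced SD of 0.16. The largest shift is that of CLB5 to CLB6, which rests on 6 and 5 reads of CLB6 in the induced libraries.

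The SIC1 promoter is shown because SIC1 is a known target of Swi5, whose own gene is described below. It held CCAGC at -166 on the strand of the gene and at -143 on the other strand, both in capitals in the 300 bases before the start (RefSeq R64, chrXII:286520-286819, plus strand). BOS1, on the other strand, starts 260 bases upstream of SIC1, so the first 40 bases printed lie in that gene.
SIC1: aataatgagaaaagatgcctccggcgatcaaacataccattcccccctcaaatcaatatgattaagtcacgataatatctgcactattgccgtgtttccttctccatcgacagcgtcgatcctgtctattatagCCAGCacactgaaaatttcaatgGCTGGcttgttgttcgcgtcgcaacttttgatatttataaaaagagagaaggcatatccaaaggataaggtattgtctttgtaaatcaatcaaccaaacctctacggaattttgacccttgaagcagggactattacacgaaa

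Per kilobase of coding sequence, the order of the genes differed between the groups in its lower part. SIC1 was highest, at 228 ± 1.49 CPM per kb in induced libraries and 210.3 ± 3.62 CPM per kb in uninduced libraries. CLN3, CLN1, CLN2, CLB3 and CLB1 followed in that order in both groups, from 102 CPM per kb for CLN3 to 21.6 CPM per kb for CLB1 in induced libraries and from 121 CPM per kb for CLN3 to 43.4 CPM per kb for CLB1 in uninduced libraries. CLN3 and CLN1 overlapped in the induced libraries, and CLN1 and CLN2 overlapped in the uninduced libraries. CLB2 stood below CLB4 and CLB5 in induced libraries, with 11.5 ± 0.324 CPM per kb against 13.6 ± 0.866 for CLB4 and 12.5 ± 0.745 for CLB5. In uninduced libraries CLB2 stood above both, with 18.8 ± 0.118 CPM per kb against 15.8 ± 0.224 for CLB5 and 13.6 ± 0.589 for CLB4. CLB6 came last, at 0.354 ± 0.103 CPM per kb in induced libraries and 2.44 ± 0.516 CPM per kb in uninduced libraries.

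Genes that control the cyclins were then counted in lists. In a list of transcription factor genes of the cyclins 7 of 8 were called lower and 1 higher (median -0.78), where 37.0% of all genes were lower and 35.6% higher. That list leaves out the SBF and MBF genes, which were counted with the regulators of Start. Of these, SWI4 (0.06 ± 0.07, adjusted p = 0.443) and MBP1 (-0.08 ± 0.06, adjusted p = 0.252) did not pass, and SWI6 fell by 0.20 ± 0.05. FKH2, the forkhead partner of Mcm1 at the CLB2 gene, had 44.0 and 43.6 CPM in induced libraries, against 93.3 and 98.4 CPM in uninduced libraries (-1.11 ± 0.07, adjusted p = 8.75e-09). FKH1, its relative, fell by 0.84 ± 0.08, MCM1 itself fell by 0.74 ± 0.05 and SWI5 by 0.67 ± 0.06. HCM1, a forkhead factor of S phase that activates FKH1, FKH2 and NDD1, had 28.1 and 20.7 CPM in induced libraries, against 56.3 and 54.5 CPM in uninduced libraries (-1.17 ± 0.12, adjusted p = 1.3e-06). YOX1 was the gene of this list called higher (0.68 ± 0.10). The remaining genes of the list were NDD1, which fell by 0.17 ± 0.05, and YHP1, which fell by 0.82 ± 0.12.

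The genes known to be switched on with CLB2 in G2 and M went both ways. Of 18 in the list, 10 fell and 3 rose, with a median of -0.18, where 37.0% of all genes were lower and 35.6% higher. With total-read scaling 6 fell and 6 rose, where 1776 of all 6037 genes were lower and 2664 higher. SPO12, a regulator of mitotic exit, had 46.9 and 46.4 CPM in induced libraries and 78.9 and 70.2 CPM in uninduced libraries (-0.66 ± 0.07), a change like that of SWI5. APC1, a scaffold subunit of the ubiquitin ligase that destroys mitotic cyclins, rose by 0.88 ± 0.06. No gene of this list fell by as much as CLB1, and SWI5, at -0.67, lay nearest to CLB2.

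Genes switched on in late M and early G1, the cluster in which SIC1 is placed, were mostly lower, while SIC1 stood at 0.12. Of 16 listed without SIC1, 13 fell and 0 rose, with a median of -0.72, where 37.0% of all genes tested were lower. By limma at an unadjusted p under 0.05, 0 were higher, and 0 were higher in edgeR and in DESeq2. With total-read scaling 1 was higher, as it was without uninduced library 1. DSE2, a daughter-cell gene that acts in cell separation, had 159 and 158 CPM in induced libraries, against 554 and 609 CPM in uninduced libraries (-1.87 ± 0.05, adjusted p = 2.32e-11). DSE1, another daughter-cell gene, fell by 1.62 ± 0.05. The glucanase gene SCW11 fell to 72.3 ± 2.08 CPM in induced libraries, against 205.7 ± 5.22 CPM in uninduced libraries. All 3 are known to act in the wall between mother and daughter cell.

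Targets of SBF and MBF at the G1/S boundary went both ways, with 9 of 20 lower and 7 higher and a median of 0.08, which is near the 37.0% lower and 35.6% higher of all genes tested. HO, the mating-type endonuclease gene, had 7.39 and 7.84 CPM in induced libraries, against 38.0 and 39.0 CPM in uninduced libraries (-2.20 ± 0.10, adjusted p = 1.16e-09). RNR1, a subunit of ribonucleotide reductase, had 29.5 and 28.4 CPM in induced libraries and 77.6 and 75.1 CPM in uninduced libraries (-1.37 ± 0.07). CTF18, of a clamp loader used in cohesion, rose by 1.18 ± 0.07. Among 11 regulators of Start 6 fell and 2 rose (median -0.20), where 37.0% of all genes were lower and 35.6% higher. With total-read scaling 4 were called higher, as were 2664 of all 6037 genes. The Start inhibitor WHI5 fell to 17.4 ± 1.33 CPM in induced libraries, against 40.9 ± 0.0274 CPM in uninduced libraries (-1.19 ± 0.09), and NRM1, a corepressor of MBF, fell by 0.88 ± 0.11, while SRL3 (also called WHI7), a relative of WHI5, rose by 0.67 ± 0.06.

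Genes of the kinase and those listed with it as regulators, direct or not, were mostly higher. Of 10 genes 8 rose and 1 fell, with a median of 0.72, where 35.6% of all genes were higher and 37.0% lower. CDC28 had 181 and 174 CPM in induced libraries, against 109 and 109 CPM in uninduced libraries (0.70 ± 0.05, adjusted p = 9.03e-08). The kinase subunit CKS1 had 128 and 126 CPM in induced libraries and 69.0 and 63.4 CPM in uninduced libraries (0.93 ± 0.06). MIH1, the phosphatase that removes the inhibitory phosphate from Cdc28, rose by 1.21 ± 0.07, and SWE1, the kinase that places it, fell by 0.41 ± 0.07. FAR1, an inhibitor of Cln-bound Cdc28 in the pheromone response, rose by 1.13 ± 0.07 to 75.8 ± 3.58 CPM in induced libraries, against 34.2 ± 0.659 CPM in uninduced libraries.

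The ligases that destroy Sic1 and the cyclins, and the mitotic exit network, had members called in both directions, and their shares higher, from 33.3% to 37.5%, were near the 35.6% of all genes. In the SCF ligase 2 of 6 genes rose and 1 fell (median 0.05): the cullin CDC53 rose by 0.45 ± 0.05, GRR1, which recognises Cln1 and Cln2, by 0.18 ± 0.05, and the ubiquitin-conjugating enzyme CDC34 fell by 0.21 ± 0.05. The call of CDC34 was lost with total-read scaling (-0.088, adjusted p = 0.176) and that of GRR1 without induced library 2 (0.16, adjusted p = 0.0693). CDC4, which recognises phosphorylated Sic1, had 119 and 128 CPM in induced libraries and 123 and 112 CPM in uninduced libraries and did not pass (0.07 ± 0.06, adjusted p = 0.306). In the anaphase-promoting complex and its activators 6 of 16 rose and 3 fell (median 0.16), and with total-read scaling 10 were called higher, as were 2664 of all 6037 genes. Besides APC1, the subunit CDC16 rose by 0.54 ± 0.07, and AMA1, an activator used in meiosis, fell by 1.05 ± 0.14. In the mitotic exit network 4 of 12 rose and 2 fell (median 0.07), with the kinase gene DBF2 at 0.53 ± 0.06 and its partner MOB1 at 0.27 ± 0.06. Without induced library 2 that network had 2 higher and 1 lower, without uninduced library 1 it had 4 higher and 1 lower, and against a 1.2-fold change 1 was called in each direction.

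**Figure D4:**
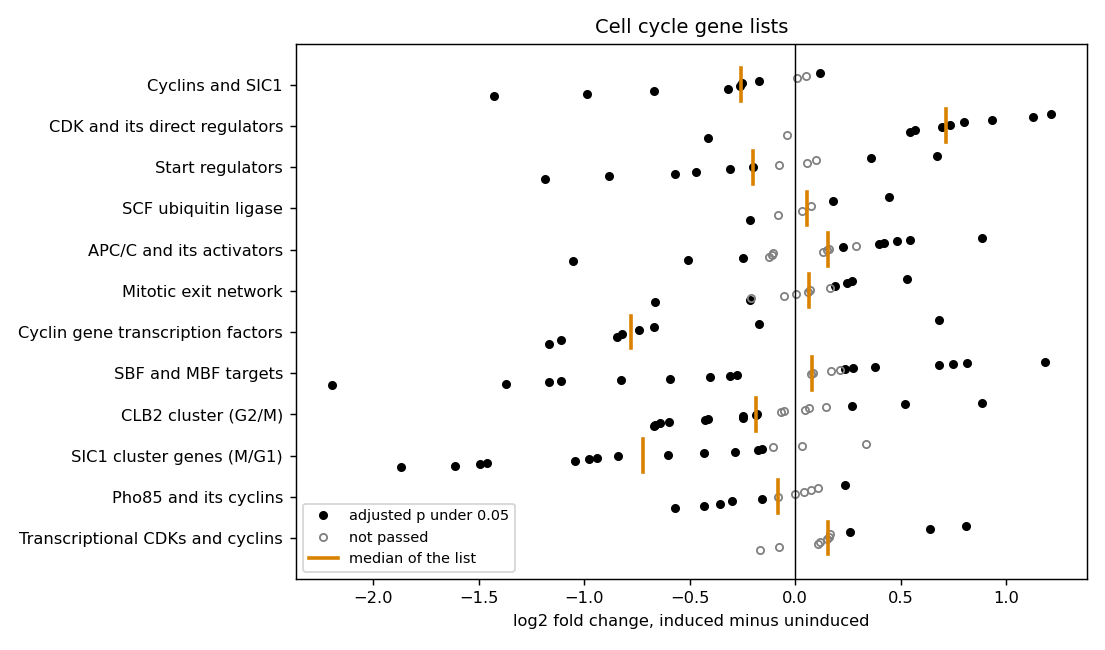
Log2 fold change of each gene, induced minus uninduced (horizontal axis), for the cyclins and SIC1 and the other lists, with filled points for genes called by limma, open points for the rest and an orange bar for the list's median. The kinase list lies mostly to the right of 0, and the lists of transcription factors and of SIC1 cluster genes mostly to the left.

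The genes most like SIC1 and CLB6 over the 4 libraries were found by the distance between their values, each as log2 of the value over the gene's own mean. Nearest to SIC1, the member with the largest rise, were RVS161 (distance 0.010), FLR1, SAK1, UNG1 and VPS4 (0.021). SAK1 had an adjusted p of 0.0469, and the other 4 of these did not pass. Nearest to CLB6 were ZRT1 (0.39), TIP1, RTC2, AAH1 and INA1 (0.47), all at 20 CPM or more on average. ZRT1, the zinc transporter gene, had 215 and 172 CPM in induced libraries, against 1092 and 1229 CPM in uninduced libraries. With 2 groups of 2 libraries such likeness reflects little beyond the size of the group difference.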

How the data were processed

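RNA from 2 induced and 2 uninduced yeast cultures was sequenced as stranded TruSeq mRNA libraries on a HiSeq 2500, per the labels' protocols. The submitters' processing notes list TopHat2 2.0.13, HTSeq and edgeR and the builds sacCer3 and R64, with no roles. Annotation, strand setting and filters were not given in the sources used here. Groups follow the libraries' descriptions, and columns were matched by title.

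The authors deposited CPM, a normalized signal whose column sums were 949572 and 945865 (induced) and 1026833 and 1041888 (uninduced). All values were whole multiples of the worth of 1 read within 0.001 reads, which gave the reads. For uninduced library 2 that worth, 0.1002 CPM, is close to a round decimal, so the evidence there is weaker. The authors' deposited log2 fold change and adjusted p-value were used as description only.

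Group was tested two-sided in limma 3.58.1 (R 4.3.3) with a variance trend, after CPM were log2-transformed with a pseudocount of 1, with Benjamini-Hochberg adjustment over 6037 genes with a mean of at least 1 CPM. The fit was also run on simulated reads in which few genes changed, unlike here, so that run does not check these calls or the scaling. Alternatives were pseudocounts of 0.5 and 5, no filter or a minimum of 5 CPM, total-read scaling, quantile normalization, no trend, edgeR 4.0.16, DESeq2 1.42.0, limma's treat against a 1.2-fold change, replicate number as a block and leaving out each library. A library left alone in its group was assumed to vary like the other group. Over 5017 genes of 20 CPM or more, replicates differed with an SD of 0.11 (induced) and 0.12 (uninduced) in log2, and reads differed within a pair beyond sampling noise (chi-square per degree of freedom 4.83 and 4.56).

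Promoters are the 600 bases before each RefSeq gene start (R64), which reach into an upstream gene for CLB3, CLB4, CLB5 and SIC1.

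The members and lists were chosen with earlier results of these data known. From each further list the text names up to 3 called genes with the largest change, and the 5 genes most like the member with the largest rise and the one with the largest fall. CDC28, SWE1, MCM1, YOX1, NDD1, YHP1, SWI4, SWI6, MBP1 and CDC4, and SWI5 among the transcription factors, were named after their values were seen. A further gene of these lists is not reported here.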

Additional observations from a re-analysis of the deposited data

How the results depend on the processing

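CLB1 and CLB2 kept their direction and call in 15 of 15 alternatives and CLB6 in 14 of 14. CLB6, whose mean passed the main filter through the uninduced libraries, gave no value under a minimum of 5 CPM. Of all members called (8), 4 were called with total-read scaling, 5 in DESeq2 and 3 against a 1.2-fold change, and 4 to 8 with a library left out. Those called lower (7) were 3 with total-read scaling, 3 against a 1.2-fold change and 4 to 7 with a library left out, where 4 stands for the omission of induced library 2. The 1 called higher, SIC1, was lost under a minimum of 5 CPM, with no intensity trend, in DESeq2 and against a 1.2-fold change (0 each). With a library left out 0 to 1 were called higher, where SIC1 was lost each time and the 1, without uninduced library 1, was CLN1. Of all genes, 4440 were called with total-read scaling (2664 higher and 1776 lower) and 3822 in DESeq2, where the main fit called 4387. Against a 1.2-fold change 2685 of all genes passed (4387 in the main fit), 1286 higher (2152) and 1399 lower (2235), and 54 of the listed genes (85). A threshold on size is stricter by construction, and the cause of the other changes was not tested.

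Signs turned in genes that did not pass. CLN1 ran from -0.074 to 0.18 with a library left out. CLB4 was at -0.024 after quantile normalization and ran from -0.054 to 0.069 with a library left out. With a library left out, the differences of the log2 ratios kept their sign and ran for CLN1/CLN2 from 0.11 to 0.34 (0.23 with all), CLB1/CLB2 from -0.32 to -0.29, CLB3/CLB4 from -0.36 to -0.18 (-0.27 with all), CLB5/CLB6 from 2.23 to 2.71 and SIC1 over the CLB sum from 0.60 to 0.63.

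With the replicate block 8 members were called, and 4512 of all genes. Same-numbered libraries did not deviate together (r = -0.0088 across 5017 genes, which are not independent), so the numbers were not taken as pairs. Of 330 counts per list and direction, 38 moved by more than 1.5 times. CLB2 cluster genes called lower (10) were 6 with total-read scaling and in DESeq2, 5 against a 1.2-fold change and 7 to 9 with a library left out. Of 615 values of the 41 other named genes, 0 turned sign, 14 lost a call and 10 gained it. Depth limits CLB6 most, with 5 and 6 reads in the induced libraries.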

Other observations

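Cyclin genes of other kinases were counted too. Of 11 genes of Pho85, a kinase of phosphate and glycogen metabolism, and its cyclins, 5 fell and 1 rose, with a median log2 fold change of -0.08, where 37.0% of all genes tested fell and 35.6% rose. The 1 called higher became 0 without induced library 2, without uninduced library 2, with no filter, in DESeq2 and against a 1.2-fold change. CLG1 had 324 and 320.5 CPM in induced libraries, against 484 and 473 CPM in uninduced libraries (-0.57 ± 0.05, adjusted p = 2.25e-07). PCL7 fell by 0.43 ± 0.06 and PCL6 by 0.36 ± 0.06. Of 10 genes of the kinases that act on RNA polymerase II and their cyclins, 3 rose and 0 fell in limma (median 0.16), a share higher that is near the 35.6% of all genes. At an unadjusted p under 0.05, 0 were lower in limma, and 0 were lower in edgeR and in DESeq2. Counts higher in this list were 5 in edgeR and 8 with total-read scaling, and 1 was lower with the replicate block, without induced library 1 and without uninduced library 2. Of all 6037 genes, 2199 were higher in edgeR and 2664 with total-read scaling. In 8 of the 10 genes, and in 2587 of all genes tested, both induced libraries lay above both uninduced ones. The 3 called higher in the main limma fit belong to the kinase module of TFIIH: TFB3 had 127 and 122 CPM in induced libraries, against 73.0 and 68.5 CPM in uninduced libraries (0.81 ± 0.06), its cyclin gene CCL1 rose by 0.64 ± 0.06 and its kinase gene KIN28 by 0.26 ± 0.07. KIN28 did not pass against a 1.2-fold change (adjusted p = 0.818).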
